A study of Mus musculus with 6 samples.

Results

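The genes described here carry glucose into the cell, break it down to pyruvate, turn pyruvate into lactate, export the lactate, or hold pyruvate back from the mitochondrial pyruvate dehydrogenase complex. They were taken from a list of mouse gene symbols that covers the glucose transporters, hexokinases, phosphofructokinases and PFKFB enzymes, the later glycolytic enzymes, the lactate dehydrogenases and lactate transporters, and the pyruvate dehydrogenase kinases. All 33 genes of the list were found among the 56953 genes of the data. The filter on low counts left 15591 genes, 31 of them from this list. Pgam2, the muscle phosphoglycerate mutase, had at most 1 count in any library and Pdk4, a pyruvate dehydrogenase kinase, at most 3, so neither was tested.

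Gene expression was measured by strand-specific mRNA sequencing in natural killer (NK) cells, a class of cytotoxic lymphocytes, taken from the spleen of wild-type C57BL/6 mice. The hypoxia group was kept at 1% oxygen and the normoxia group at 20% oxygen. Both were cultured for 7 days at 5% CO2 with recombinant human interleukin-2 (1700 U/ml), in a medium that held 1 mM sodium pyruvate. Each group had 3 libraries, which the labels call biological replicates. Whether these were separate mice, pools or culture dishes is not stated there, and the p-values cover only the spread between the 3 libraries of a group. The age of the mice and the way the cells were purified are not stated in the sources used here.

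Glycolysis converts glucose to pyruvate in the cytosol and yields ATP without oxygen. Lactate dehydrogenase then regenerates NAD+ from NADH by reducing pyruvate to lactate, which leaves the cell through monocarboxylate transporters, while pyruvate dehydrogenase kinases phosphorylate and inhibit the complex that would feed pyruvate into the citric acid cycle. In many cell types low oxygen stabilizes the HIF-1 alpha protein, and many of the genes described here are textbook HIF-1 targets. NK cells stimulated with interleukin-2 are known to raise their glycolysis.

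The libraries held 55104810 to 55794698 estimated counts, and 1 count equalled about 0.018 CPM (counts divided by the library's total and multiplied by a fixed factor). Levels below are CPM scaled with TMM, edgeR's correction for library composition, and libraries are given in the order of replicates 1, 2 and 3. Fold changes put hypoxia over normoxia, on a log2 scale and with a standard error (SE), and a gene was called where edgeR's quasi-likelihood test gave a Benjamini-Hochberg adjusted p under 0.05. The replicate 1 libraries of both groups stood apart from the others on the second principal component of log2 CPM, which held 22% of the variance, while the first, with 55.5%, separated the groups. The level of an mRNA in such bulk samples depends on cell numbers and on RNA per cell, and fewer cells of a type and less RNA per cell cannot be told apart.

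All 8 NK cell markers were above 1 CPM on average, with summed levels of 3630 to 4090 CPM in hypoxia and 4190 to 4830 CPM in normoxia. Prf1, the perforin gene, was the most abundant and averaged 1983 ± 156 CPM in hypoxia and 2387 ± 106 CPM in normoxia (SD, n = 3 each). Of the 8 markers, 0 were called higher and 2 lower. The transcription factor gene Eomes fell to 201 ± 25.4 CPM in hypoxia, against 312 ± 28.5 CPM in normoxia (log2 fold change -0.63, edgeR adjusted p = 0.0028), and Klre1, which encodes a lectin-like receptor, to 176 ± 9.87 CPM in hypoxia, against 225 ± 22.8 CPM in normoxia (log2 fold change -0.35, edgeR adjusted p = 0.021). The counts were 2 higher and 5 lower in a fit with a block for the replicate number. Among all tested genes 11.2% were called higher and 9.72% lower, and 19.2% and 20.0% in the fit with the block. Of 39 markers of other cell types, 18 were tested, 11 were called higher and 1 lower. Among those called higher, Ngp, S100a8, S100a9 and Lyz2 had at most 1 count in every normoxia library. They, Cd4 and Cd79b passed the filter on low counts only through the hypoxia libraries. The 7 T cell markers summed to 161 to 203 CPM in hypoxia and 108 to 126 CPM in normoxia, mostly Cd3g, with 3 called higher. The 6 macrophage and monocyte markers summed to 50.8 to 83.6 CPM in hypoxia and 15.5 to 29.2 CPM in normoxia, mostly Cd68, with 2 higher and 1 lower, while Adgre1 and C1qa had under 3 counts in every library. The 5 basophil and mast cell markers summed to 76.1 to 89.6 CPM in hypoxia and 19.1 to 27.2 CPM in normoxia, mostly Mcpt8, with 2 higher, while Fcer1a and Ms4a2 had under 3 counts. The 6 neutrophil markers, led by Ngp, summed to 1.26 to 2.53 CPM in hypoxia and 0 to 0.0571 CPM in normoxia, with 3 called higher. The 5 B cell markers, led by Cd79b, summed to 0.996 to 1.14 CPM in hypoxia and 0.256 to 0.525 CPM in normoxia, with 1 called higher. The 6 erythroid markers, led by Hba-a1, summed to 0.0712 to 0.156 CPM in hypoxia and 0 to 0.109 CPM in normoxia. The 4 platelet markers, led by Itga2b, summed to 1.51 to 1.82 CPM in hypoxia and 0.951 to 1.47 CPM in normoxia, with 0 called higher. Their part in the results below was not tested.

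Of the 31 tested genes, 14 were higher in hypoxia, 2 were lower and 15 were not called, against 11.2% of all tested genes called higher and 9.72% called lower (20.9% in either direction). The genes that rose were Hk1, Hk2, Gpi1, Pfkm, Pfkfb3, Aldoa, Tpi1, Pgam1, Eno1, Eno3, Pkm, Ldhb, Pdk1 and Pdk2, and the genes that fell were Hk3 and Pfkfb4. Ldhb passed the filter only through its hypoxia libraries, so the share of called genes among those tested includes a gene that had to be higher to be tested at all. The median log2 fold change was 0.27 over the 31 genes and -0.01 over all tested genes, with 22 genes above 0 and 9 below. The 3 hypoxia libraries lay above all 3 normoxia libraries for 17 genes and below them for 3, against 19.6% and 18.7% of all tested genes.

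The changes were small for most of the called genes. Among them the log2 fold change was 0.59 to 1.19 for Gpi1, Pfkfb3, Pdk2, Eno3 and Ldhb, and no more than 0.50 in size for the others. With a block for the replicate number, 21 genes were higher and 2 lower, against 19.2% of all tested genes called higher and 20.0% called lower in that fit. The genes called higher with the block in addition were Slc2a1, Pfkl, Pfkfb2, Aldoc, Pgk1, Ldha and Slc16a3. Without 1 library the number called higher was 9 without each of the hypoxia libraries in turn, 18 without normoxia replicate 1, 6 without normoxia replicate 2 and 8 without normoxia replicate 3. Under scaling by library size alone 20 of the genes were higher and 0 lower, and over all genes the split then was 2384 higher against 998 lower, in place of 1745 against 1516 with TMM. The calls of Hk3 and Pfkfb4 were lost under that scaling (adjusted p 0.0858 and 0.116), that of Pfkfb4 also under a stricter filter (0.0585), those of Hk1, Tpi1, Eno1 and Pdk1 with no filter (0.142, 0.0555, 0.0555 and 0.0625), and that of Ldhb with DESeq2 (0.1) and without both replicate 1 libraries (0.0535). Calls were also gained. Library size alone added Slc2a1, Pfkl, Aldoc, Pgk1, Ldha and Slc16a3 (adjusted p 0.0372, 0.0187, 0.0426, 0.0109, 0.0372 and 0.0211). DESeq2 added Pfkl and Pgk1 (0.0484 and 0.0336), the stricter filter Pgk1 (0.0444), and no filter Slc2a1 and Aldoc (0.0447 and 0.0339). Leaving out both replicate 1 libraries added Slc2a1, Aldoc, Pgk1 and Slc16a3 (0.0114, 0.00446, 0.0142 and 0.0092).

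**Figure D1:**
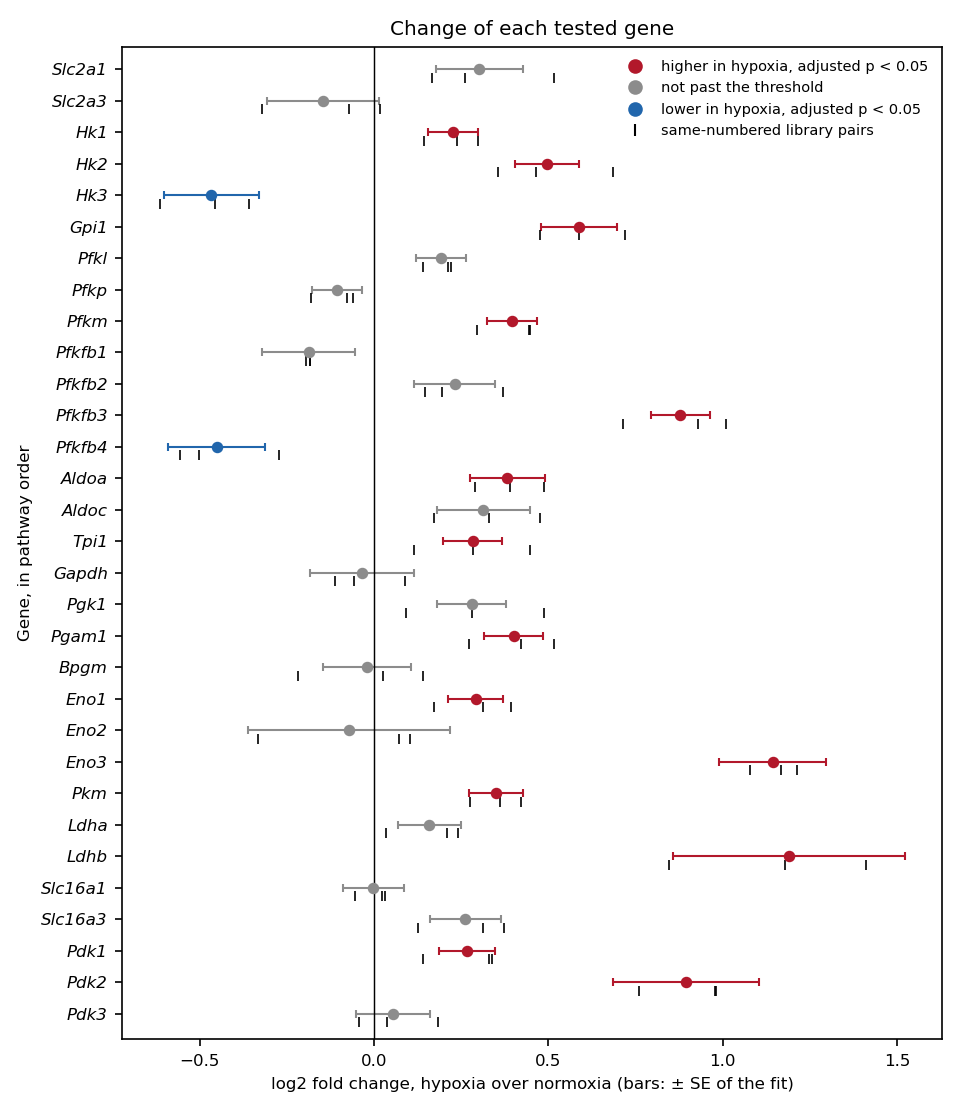
The log2 fold change (hypoxia over normoxia, x axis) of each of the 31 tested genes in pathway order, with the SE of the fit as bars and the ratios of the 3 same-numbered library pairs as ticks. Red points are the 14 genes called higher in hypoxia, blue points the 2 called lower (Hk3 and Pfkfb4), and grey points the 15 that did not pass.

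Together the 33 genes took 3.48%, 3.24% and 3.32% of all counts in the hypoxia libraries and 2.91%, 2.55% and 2.51% in the normoxia libraries. Their summed level was 33871, 30878 and 32853 CPM in hypoxia against 30860, 25656 and 25584 CPM in normoxia. Each hypoxia library was above each normoxia library, but hypoxia replicate 2 was above normoxia replicate 1 by less than the spread within either group. The mean was 32530 ± 1522 CPM in hypoxia and 27370 ± 3026 CPM in normoxia (SD, n = 3 each), a ratio of 1.19. No p is given for this sum, since the genes were chosen with results known.

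The sum was carried by 9 genes that averaged at least 1000 CPM: Gapdh, Eno1, Pkm, Aldoa, Pgk1, Ldha, Gpi1, Tpi1 and Pgam1, which ranked 8, 10, 13, 16, 19, 20, 26, 85 and 92 among all genes by mean CPM. Of these 9, 6 were higher in hypoxia and 0 lower, with a median log2 fold change of 0.29. With the replicate block 8 were higher, against 19.2% of all tested genes in that fit. Among all 100 genes of at least 1000 CPM, 9.0% were called higher and 44.0% lower, with a median of -0.27. These 100 include the 9 genes above, so 6 of the 9 called higher there are from this list. The other 22 tested genes of the list held the remaining 8 that rose and both that fell, with a median of 0.23.

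Normoxia replicate 1 held the highest of the 3 normoxia values for 22 of the 31 genes and for 9 of the 9 abundant ones. This was so for 41.2% of all tested genes and 62.0% of all genes of at least 1000 CPM. For Gapdh, Pfkp and Slc2a3, whose log2 fold changes were below 0, that value was the farthest from the hypoxia mean. For Bpgm, also below 0, normoxia replicate 2 was farther (7.86 CPM, against 10.1 CPM in normoxia replicate 1 and a hypoxia mean of 9.08 CPM). The ratio of hypoxia to normoxia was smallest in the replicate 1 pair for 24 of the 31 genes (77.4%), against 42.7% of all tested genes and 74.0% of all genes of at least 1000 CPM. The median log2 ratio of the 31 genes was 0.14 in pair 1, 0.28 in pair 2 and 0.33 in pair 3, and that of all tested genes was within 0.01 of 0 in each pair. For all genes of at least 1000 CPM it was -0.32 in pair 1, -0.25 in pair 2 and -0.19 in pair 3, in the same order across pairs.

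**Figure D2:**
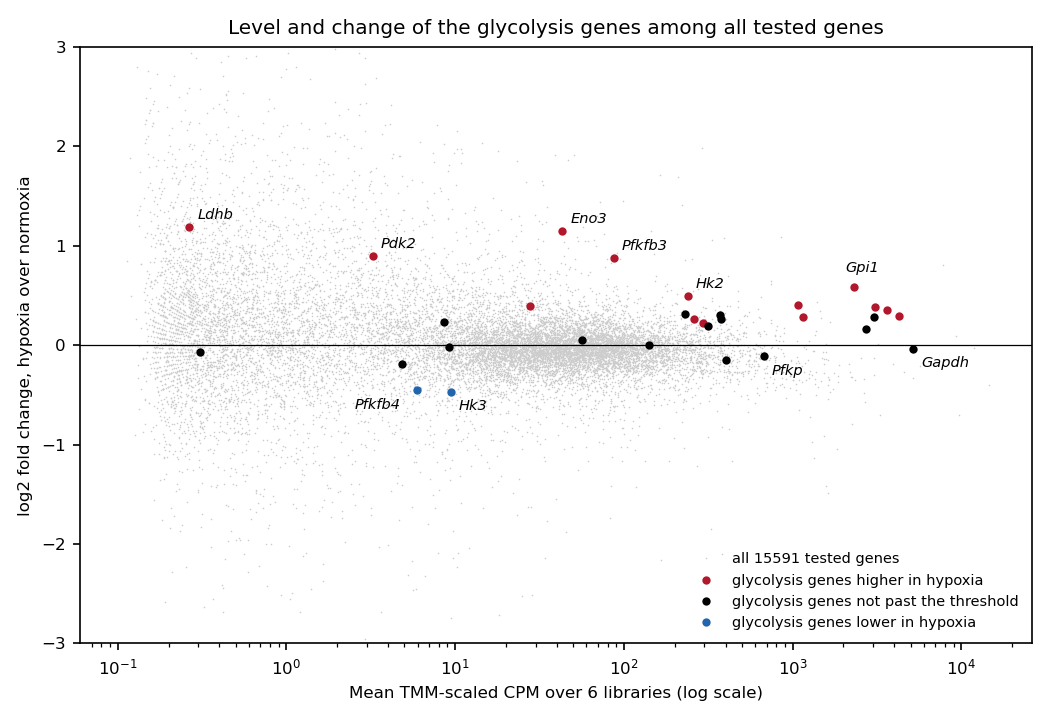
Mean TMM-scaled CPM over the 6 libraries (x axis, log scale) against the log2 fold change (hypoxia over normoxia, y axis) of all 15591 tested genes in grey, with the 31 glycolysis genes in colour. The 9 genes of at least 1000 CPM lie above 0 except Gapdh, whose sign depended on the scaling, while most grey points at that level lie below 0, and 47 genes lie beyond the axis limit of 3.

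Divided by the length of the longest coding transcript, the levels showed a wide gap between the 9 abundant enzymes and the rest. Gapdh was at 3576 ± 549 CPM per kb in hypoxia and 3663 ± 740 in normoxia (SD, n = 3 each), ahead of Eno1, Aldoa, Pgk1, Pkm and Ldha, which averaged between 1587 and 2318 CPM per kb in hypoxia and between 1308 and 1894 in normoxia. Gpi1, Tpi1 and Pgam1 followed at 962, 787 and 691 CPM per kb in hypoxia against 640, 647 and 524 in normoxia, so that Gpi1 stood above Tpi1 in hypoxia and level with it in normoxia. The first gene below the gap was Pfkp at 157 ± 4.32 CPM per kb in hypoxia and 169 ± 5.56 in normoxia. The transporters, Hk1, Hk2, Pfkl, Aldoc and Pdk1 lay between 31.8 and 126 CPM per kb in hypoxia, and Bpgm, Hk3, Pfkfb1, Pfkfb2, Pdk2, Pfkfb4, Ldhb and Eno2 were all under 5.

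**Figure D3:**
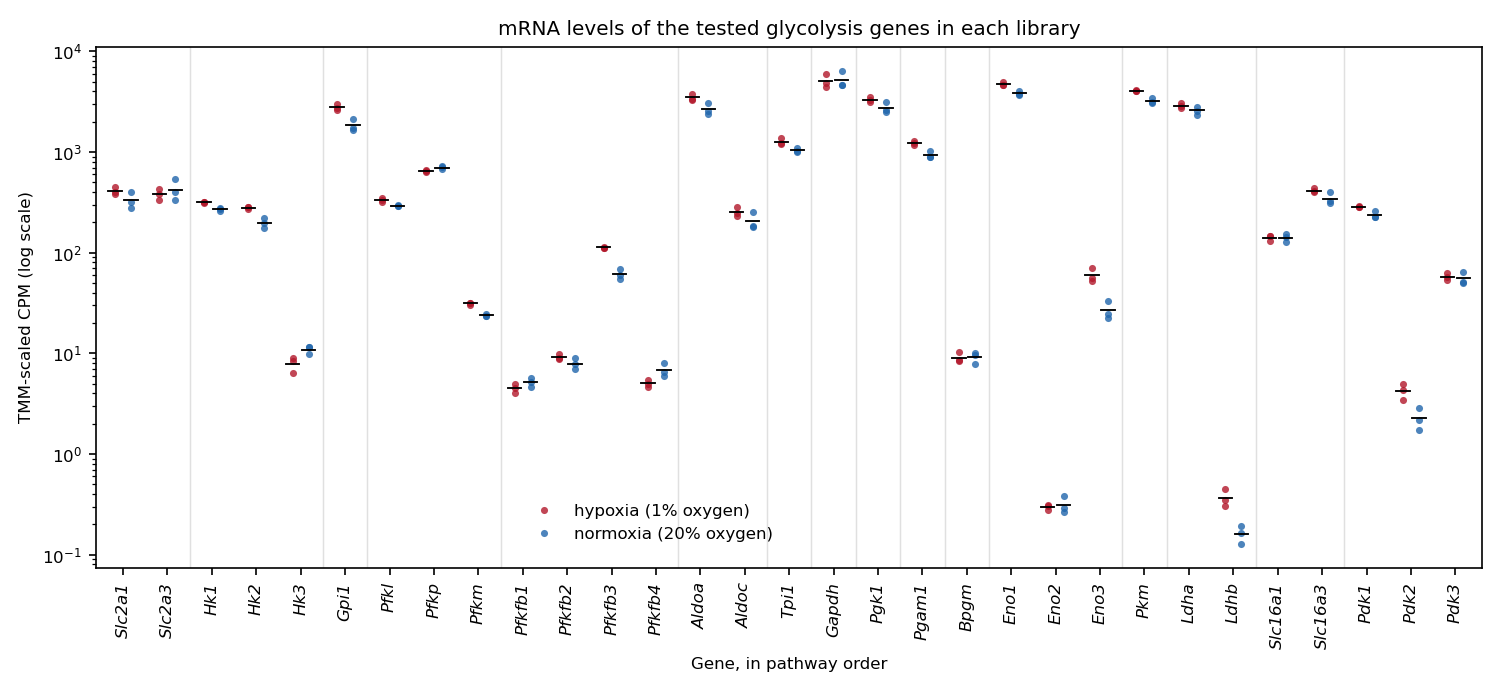
TMM-scaled CPM (y axis, log scale) of the 31 tested genes in pathway order, with 1 point per library, hypoxia in red on the left of each gene and normoxia in blue on the right, and the mean of 3 libraries as a black line. Gapdh, Eno1, Pkm and Aldoa are the highest, Eno2 and Ldhb lie under 1 CPM, and Gpi1, Pfkfb3 and Eno3 show hypoxia points clear of the normoxia points.

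Neither glucose transporter gene of the list, Slc2a1 or Slc2a3, was called. Slc2a1, which encodes the widespread transporter GLUT1, had 448, 400.2 and 384 CPM in hypoxia and 399.7, 279.8 and 320.5 CPM in normoxia. The groups overlapped through normoxia replicate 1, and the gene was above its normoxia partner in all 3 pairs (log2 fold change 0.30, SE 0.13, edgeR adjusted p = 0.123, but 0.0028 with the replicate block). Without normoxia replicate 1 the adjusted p was 0.0084, and the gene did not pass without any of the other libraries, with a log2 fold change of 0.19 and an adjusted p of 0.359 without normoxia replicate 2. Slc2a3, which encodes the high-affinity transporter GLUT3, had 428, 381 and 336 CPM in hypoxia and 536, 401 and 332 CPM in normoxia. Its groups overlapped, with a change of -0.15 (log2, SE 0.16, edgeR adjusted p = 0.571) that turned to 0.058 without normoxia replicate 1.

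Per unit of length, Slc2a1 held 56.0%, 56.0% and 58.2% of the sum of both transporter mRNAs in hypoxia and 47.5%, 45.9% and 54.0% in normoxia. Its share was thus higher in every hypoxia library, with means of 56.7% ± 1.26 in hypoxia and 49.1% ± 4.30 in normoxia (SD, n = 3 each; two-sided exact permutation p = 0.1). That is the smallest p that 3 libraries against 3 allow. Over the 18 family shares tested in 8 families, 14 had groups that did not overlap, and each of these had this p, which becomes 0.129 after Benjamini-Hochberg adjustment, so no share could pass a threshold of 0.05.

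The hexokinases, which trap glucose in the cell by phosphorylation, moved in different directions. Hk1 and Hk2, which bind to mitochondria, rose, and Hk3, a form known from myeloid cells, fell. Hk2 had 271, 284 and 282 CPM in hypoxia against 197, 177 and 221 CPM in normoxia, with no overlap (log2 fold change 0.50, SE 0.09, edgeR adjusted p = 0.0042). Hk1 had 309, 318 and 322 CPM in hypoxia against 280.0, 269.7 and 262 CPM in normoxia, a narrow but complete separation (log2 fold change 0.23, SE 0.07, edgeR adjusted p = 0.047). Hk3 was far less abundant, with 6.36, 8.38 and 8.91 CPM in hypoxia against 9.75, 11.51 and 11.43 CPM in normoxia (log2 fold change -0.47, SE 0.14, edgeR adjusted p = 0.037).

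The share of Hk2 in the summed hexokinase mRNA per kb was 39.9% ± 0.231 in hypoxia and 35.0% ± 2.94 in normoxia, and that of Hk3 was 1.92% ± 0.287 in hypoxia and 3.31% ± 0.367 in normoxia (SD, n = 3 each), both without overlap. With the mean transcript length in place of the longest, the difference in the Hk3 share was -0.616 points in place of -1.38. The share of Hk1 overlapped between the groups, at 58.2% in hypoxia and 61.7% in normoxia (two-sided exact permutation p = 0.2). The Hk2 call held without each library in turn. The call of Hk1 was lost without hypoxia replicate 1, 2 or 3 or normoxia replicate 2 or 3 (adjusted p 0.0872, 0.142, 0.109, 0.138 and 0.143), and that of Hk3 without hypoxia replicate 1 or 2 or normoxia replicate 2 or 3 (0.108, 0.0846, 0.123 and 0.093).

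Hk3 had the smallest p of the genes that fell, and its promoter window is therefore shown, 250 bases before to 50 bases after the start, from RefSeq on build GRCm38.p6, read 5′ to 3′ on the strand of the gene. Capitals mark ACGTG or GCGTG on either strand (CACGT or CACGC where the match is on the other strand), the letters at the core of the hypoxia response element that HIF proteins bind.
Hk3, chr13:55021336-55021635, minus strand: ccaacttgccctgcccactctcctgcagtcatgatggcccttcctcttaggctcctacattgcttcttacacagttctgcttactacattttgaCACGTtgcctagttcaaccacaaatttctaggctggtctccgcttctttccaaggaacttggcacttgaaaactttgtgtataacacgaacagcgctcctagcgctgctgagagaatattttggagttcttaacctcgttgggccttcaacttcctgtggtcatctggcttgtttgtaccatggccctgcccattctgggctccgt
This window held 1 ACGTG and no GCGTG. A match to these letters is a description of the window and not a binding site.

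Gpi1, glucose-6-phosphate isomerase, showed the largest change of the abundant enzymes. It had 2987, 2602 and 2737 CPM in hypoxia against 2147, 1733 and 1660 CPM in normoxia, and every hypoxia library was above every normoxia library. The mean was 2775 ± 195 CPM in hypoxia and 1847 ± 262 CPM in normoxia (SD, n = 3 each), a 1.503-fold difference (log2 fold change 0.59, SE 0.11, edgeR adjusted p = 0.0046). The call held without each library in turn.

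Phosphofructokinase-1 commits fructose-6-phosphate to glycolysis as a tetramer of liver-type (Pfkl), platelet-type (Pfkp) and muscle-type (Pfkm) subunits. Pfkm, the least abundant of the subunit mRNAs, was the one that rose. It had 30.4, 31.9 and 31.8 CPM in hypoxia against 24.8, 23.4 and 23.3 CPM in normoxia (log2 fold change 0.40, SE 0.07, edgeR adjusted p = 0.0040). Pfkl had 321, 335 and 348 CPM in hypoxia and 291, 289 and 299 CPM in normoxia, without overlap, but did not pass (log2 fold change 0.19, SE 0.07, edgeR adjusted p = 0.0880, but 0.0094 with the replicate block). Pfkp, the most abundant subunit mRNA, had 633, 668 and 645 CPM in hypoxia and 718, 705 and 674 CPM in normoxia, all 3 lower, and did not pass either (log2 fold change -0.11, SE 0.07, edgeR adjusted p = 0.341).

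The shares of the subunit mRNAs are given as a description, since no share could pass the threshold. Per kb, Pfkp held 60.9% ± 0.910 in hypoxia and 66.0% ± 1.03 in normoxia (SD, n = 3 each). Pfkl held 34.9% ± 0.900 in hypoxia and 30.8% ± 1.05 in normoxia, and Pfkm 4.23% ± 0.0102 in hypoxia and 3.24% ± 0.0653 in normoxia. The groups did not overlap for any of the 3 subunits. Pfkp shares 718 stretches of 31 bases, matched on either strand, with the overlapping gene Pitrm1, which averaged 69.1 CPM in hypoxia and 68.6 CPM in normoxia. Matches on the same strand and on the opposite strand were not counted apart, so part of the Pfkp counts is uncertain.

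The PFKFB enzymes make and remove fructose-2,6-bisphosphate, the allosteric activator of phosphofructokinase-1. Of their 4 genes, 1 rose and 1 fell. Pfkfb3, the form with the highest kinase activity relative to its phosphatase activity, had 112, 111 and 114 CPM in hypoxia against 68.3, 55.2 and 59.98 CPM in normoxia. This was a 1.84-fold difference (log2 fold change 0.88, SE 0.09, edgeR adjusted p = 0.00013), the smallest p of the 31 genes, and the call held without each library in turn. Pfkfb4, another inducible form that is a HIF-1 target in several cell types, fell. It had 4.98, 5.49 and 4.61 CPM in hypoxia against 6.02, 8.08 and 6.53 CPM in normoxia (log2 fold change -0.45, SE 0.14, edgeR adjusted p = 0.045).

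The Pfkfb4 call was lost without hypoxia replicate 1, 2 or 3 or normoxia replicate 2 or 3 (adjusted p 0.114, 0.08, 0.134, 0.18 and 0.0632). Pfkfb1, the liver form, had 4.54, 4.97 and 4.07 CPM in hypoxia and 5.20, 5.65 and 4.62 CPM in normoxia (log2 fold change -0.19, edgeR adjusted p = 0.364). Pfkfb2, the heart form, had 8.94, 9.86 and 8.88 CPM in hypoxia and 6.91, 8.91 and 7.75 CPM in normoxia (log2 fold change 0.23, edgeR adjusted p = 0.196, but 0.0460 with the replicate block). Both pairs of groups overlapped.

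Pfkfb3 took a larger share of the family in hypoxia. It held 79.9%, 78.2% and 81.2% of the summed PFKFB mRNA per kb in hypoxia and 70.1%, 61.0% and 67.2% in normoxia. The other shares were all lower in hypoxia without overlap: Pfkfb1 held 8.24% ± 0.770 in hypoxia and 14.3% ± 1.48 in normoxia, Pfkfb2 7.10% ± 0.370 in hypoxia and 9.27% ± 1.502 in normoxia, and Pfkfb4 4.91% ± 0.403 in hypoxia and 10.3% ± 1.91 in normoxia (SD, n = 3 each). With CPM not divided by length, the difference in the Pfkfb1 share was -2.93 points in place of -6.10. Since shares add up to the whole, the rise of Pfkfb3 by itself lowers the other 3.

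The promoter windows of Pfkfb3, which has 2 start sites in the table, and Pfkfb4 are shown because these genes of the same family changed in opposite directions (RefSeq, GRCm38.p6, capitals as above).
Pfkfb3 first window, chr2:11553880-11554179, minus strand: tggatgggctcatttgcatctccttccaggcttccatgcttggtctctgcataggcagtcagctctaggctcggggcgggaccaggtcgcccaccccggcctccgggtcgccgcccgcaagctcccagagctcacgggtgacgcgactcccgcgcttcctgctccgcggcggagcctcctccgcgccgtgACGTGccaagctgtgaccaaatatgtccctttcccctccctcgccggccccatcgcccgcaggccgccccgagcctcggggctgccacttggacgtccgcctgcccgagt
Pfkfb3 second window, chr2:11502041-11502340, minus strand: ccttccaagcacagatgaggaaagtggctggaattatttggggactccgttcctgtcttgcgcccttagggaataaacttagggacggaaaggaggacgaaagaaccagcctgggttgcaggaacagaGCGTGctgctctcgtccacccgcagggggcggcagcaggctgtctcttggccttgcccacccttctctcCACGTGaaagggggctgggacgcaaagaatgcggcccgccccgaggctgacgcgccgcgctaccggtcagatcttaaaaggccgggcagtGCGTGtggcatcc
Pfkfb4, chr9:108991652-108991951, plus strand: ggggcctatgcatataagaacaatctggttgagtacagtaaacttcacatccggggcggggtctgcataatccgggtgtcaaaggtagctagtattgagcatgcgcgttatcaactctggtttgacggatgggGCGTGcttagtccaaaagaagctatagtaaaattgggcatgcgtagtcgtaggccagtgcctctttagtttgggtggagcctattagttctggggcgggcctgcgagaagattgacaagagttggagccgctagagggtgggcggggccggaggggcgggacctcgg
The first Pfkfb3 window held 1 ACGTG. The second held 2 GCGTG and the palindrome CACGTG, which counts as ACGTG on both strands. The Pfkfb4 window held 1 GCGTG. The counts do not say from which start site Pfkfb3 was transcribed, since they are given per gene.

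**Figure D4:**
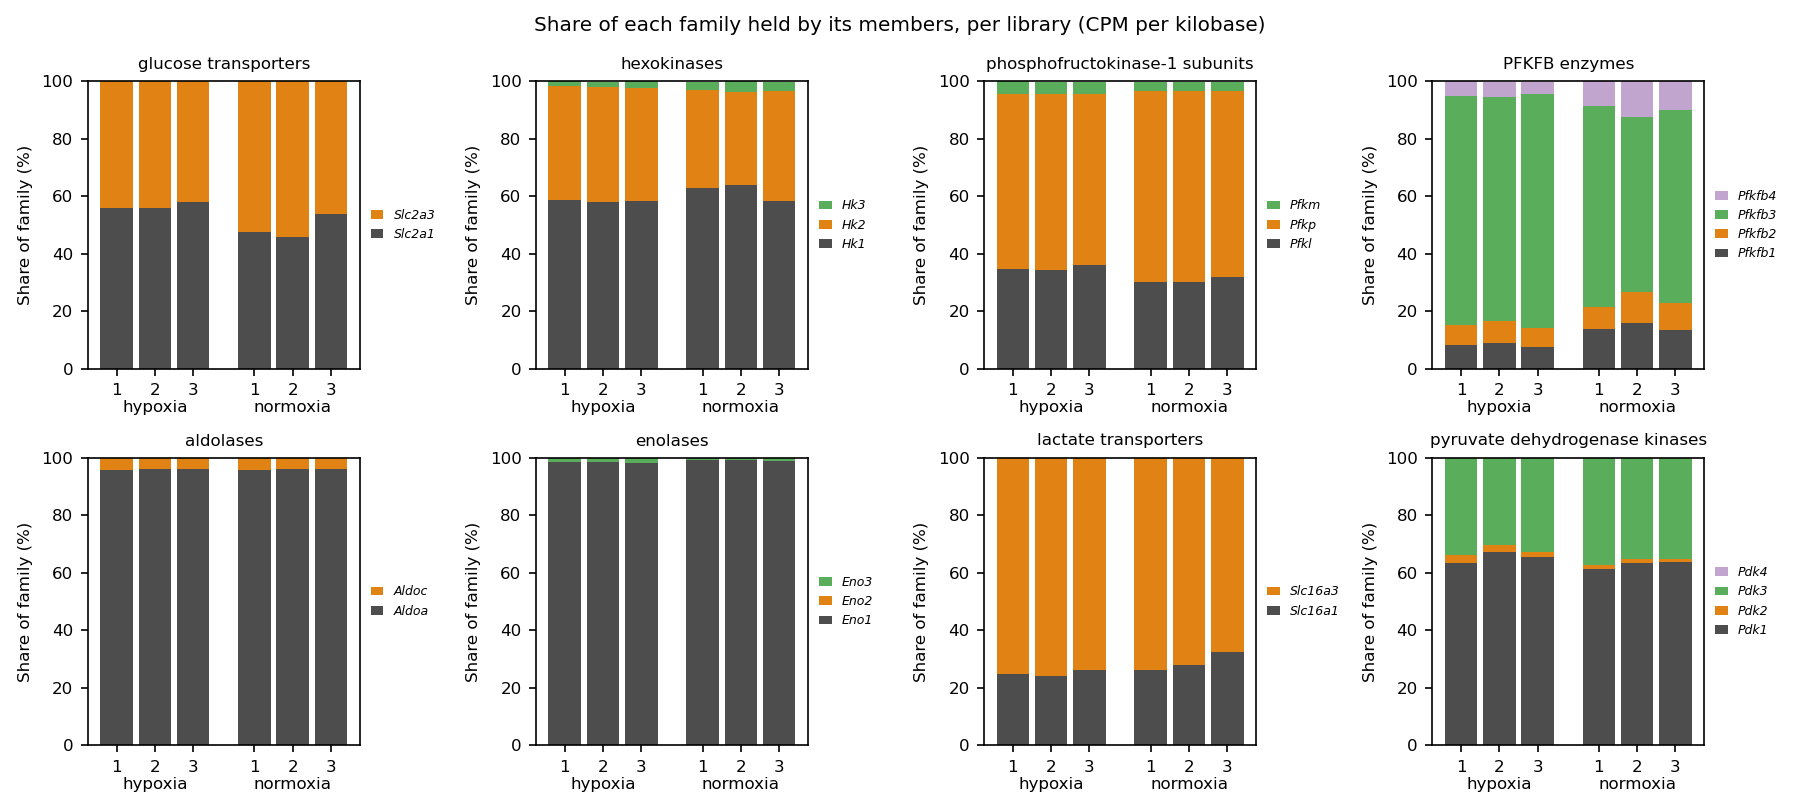
Share of each gene in the summed mRNA of its family (y axis, percent of TMM-scaled CPM per kb of the longest coding transcript) for 8 families, with 1 bar per library, hypoxia replicates 1 to 3 on the left and normoxia replicates 1 to 3 on the right. Pfkfb3 holds 78.2% to 81.2% of the PFKFB bars in hypoxia and 61.0% to 70.1% in normoxia, while Aldoa and Eno1 fill nearly all of their family in every library.

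In the middle of the pathway, the mRNAs of aldolase A and triosephosphate isomerase rose and that of the dehydrogenase Gapdh was not called. Aldoa, which splits fructose-1,6-bisphosphate, had 3775, 3302 and 3368 CPM in hypoxia against 3088, 2523 and 2405 CPM in normoxia, without overlap (log2 fold change 0.38, SE 0.11, edgeR adjusted p = 0.032). Tpi1, triosephosphate isomerase, had 1192, 1229 and 1373 CPM in hypoxia against 1101, 1011 and 1006 CPM in normoxia (log2 fold change 0.28, SE 0.08, edgeR adjusted p = 0.040). Aldoc, the brain-type aldolase, had 284, 233 and 247 CPM in hypoxia and 252, 186 and 178 CPM in normoxia, with overlap through normoxia replicate 1 (log2 fold change 0.31, edgeR adjusted p = 0.131, but 0.0014 with the replicate block). Without normoxia replicate 1 its adjusted p was 0.0053. Aldoa held 96.1% of the aldolase mRNA per kb in hypoxia and 95.9% in normoxia, with overlapping groups (two-sided exact permutation p = 0.4). The Aldoa call was lost without hypoxia replicate 1 or 3 or normoxia replicate 2 or 3 (adjusted p 0.0945, 0.0533, 0.123 and 0.0985), and the Tpi1 call without hypoxia replicate 2 or 3 or normoxia replicate 2 or 3 (0.0849, 0.111, 0.139 and 0.113).

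Gapdh, glyceraldehyde-3-phosphate dehydrogenase and a common loading control, was the most abundant mRNA of the list. It had 5935, 4411 and 4888 CPM in hypoxia and 6415, 4592 and 4597 CPM in normoxia, and replicate 1 was the highest library of each group. The groups overlapped (log2 fold change -0.03, SE 0.15, edgeR adjusted p = 0.901). The sign of this value changed with the scaling, since it was 0.052 under library size alone, and with the libraries, since it was 0.14 without normoxia replicate 1, 0.070 without hypoxia replicate 2 and 0.017 without both replicate 1 libraries. Of the 31-base stretches of the Gapdh mRNA, 84.1% also occur in other annotated genes, mostly processed pseudogenes, and 132 genes share at least 100 of them. Those 132 genes held 8334, 34558 and 36043 counts in hypoxia and 7784, 29244 and 31368 counts in normoxia. With these counts added to Gapdh it had 6081, 5010 and 5530 CPM in hypoxia and 6562, 5121 and 5170 CPM in normoxia (log2 fold change -0.02, SE 0.12, edgeR adjusted p = 0.929). Adding the counts of such copies changed no call among the 31 genes. The counts of Hk1os, Pitrm1 and Gm49759, which share stretches with Hk1, Pfkp and Pkm, were not among those added.

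The steps after Gapdh were mostly higher in hypoxia. Pgam1, phosphoglycerate mutase, had 1229, 1181 and 1272 CPM in hypoxia against 1018, 882 and 889 CPM in normoxia (log2 fold change 0.40, SE 0.08, edgeR adjusted p = 0.0086). This call held without each library in turn. Eno1, the ubiquitous enolase, had 4582, 4576 and 4938 CPM in hypoxia against 4064, 3690 and 3762 CPM in normoxia (log2 fold change 0.29, SE 0.08, edgeR adjusted p = 0.027). Both genes had groups that did not overlap. Pgk1, phosphoglycerate kinase, had 3309, 3135 and 3475 CPM in hypoxia and 3110, 2583 and 2481 CPM in normoxia, also without overlap, but did not pass (log2 fold change 0.28, SE 0.10, edgeR adjusted p = 0.0758, but 0.0074 with the replicate block). Without normoxia replicate 1 its adjusted p was 0.0101, and it did not pass without any of the other libraries (up to 0.232). The Eno1 call was lost without hypoxia replicate 1, 2 or 3 or normoxia replicate 2 or 3 (adjusted p 0.0512, 0.0635, 0.07, 0.118 and 0.0709).

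Eno3, the muscle enolase, had the largest fold change of the genes above 1 CPM. It had 52.2, 55.7 and 70.2 CPM in hypoxia against 22.5, 24.8 and 33.2 CPM in normoxia, a 2.21-fold difference (log2 fold change 1.14, SE 0.15, edgeR adjusted p = 0.00079). The call held without each library in turn. Even so, Eno3 made up only 1.61% ± 0.183 of the enolase mRNA per kb in hypoxia and 0.903% ± 0.212 in normoxia (SD, n = 3 each), the remainder being almost entirely Eno1. Eno2, the neuronal enolase, averaged 0.298 CPM in hypoxia and 0.313 CPM in normoxia (log2 fold change -0.07, edgeR adjusted p = 0.892). Bpgm, which makes 2,3-bisphosphoglycerate, averaged 9.08 ± 1.03 CPM in hypoxia and 9.21 ± 1.18 CPM in normoxia (log2 fold change -0.02, edgeR adjusted p = 0.935).

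At the last glycolytic step, Pkm, which encodes both muscle-type pyruvate kinases, rose. It had 4120, 3988 and 4056 CPM in hypoxia against 3402, 3107 and 3031 CPM in normoxia, without overlap (log2 fold change 0.35, SE 0.08, edgeR adjusted p = 0.011). Without normoxia replicate 2 the adjusted p was 0.0583. Alternative splicing of 1 exon pair decides whether Pkm gives PKM1 or PKM2, and the deposited counts are per gene, so the share of the 2 forms cannot be given. The gene model Gm49759 lies inside Pkm on the same strand, over both alternative exons of 167 bases. It shares 139 stretches of 31 bases with the longest coding transcript of Pkm, and other Pkm transcripts were not compared. It had 94.9, 107 and 70.7 CPM in hypoxia against 39.0, 51.7 and 45.5 CPM in normoxia (log2 fold change 1.00, SE 0.15, edgeR adjusted p = 0.0015), a larger difference than that of Pkm. This model was chosen after its values were seen, and its reads cannot be told apart from those of Pkm over the shared exons.

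Lactate handling was dominated by Ldha, lactate dehydrogenase A, the form linked with reduction of pyruvate. Ldha had 2883, 2721 and 3037 CPM in hypoxia and 2819, 2353 and 2571 CPM in normoxia, and the groups overlapped. It was not called (log2 fold change 0.16, SE 0.09, edgeR adjusted p = 0.254, but 0.0435 with the replicate block), although it was above its partner in all 3 pairs. Ldhb, lactate dehydrogenase B, had 20, 26 and 17 counts in hypoxia against 10, 9 and 7 counts in normoxia. It averaged 0.368 ± 0.0755 CPM in hypoxia and 0.160 ± 0.0313 CPM in normoxia (SD, n = 3 each) and was called higher (log2 fold change 1.19, SE 0.33, edgeR adjusted p = 0.031). At this level it held 0.0179% of the lactate dehydrogenase mRNA per kb in hypoxia and 0.0087% in normoxia. The Ldhb call was lost without hypoxia replicate 1 or 2 or normoxia replicate 2 or 3 (adjusted p 0.0719, 0.138, 0.0943 and 0.106).

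Ldha is shown as an abundant gene that did not pass and whose first promoter window held 5 ACGTG, including 2 CACGTG palindromes, and 2 GCGTG (RefSeq, GRCm38.p6, capitals as above). It was chosen after these counts were seen.
Ldha first window, chr7:46845554-46845853, plus strand: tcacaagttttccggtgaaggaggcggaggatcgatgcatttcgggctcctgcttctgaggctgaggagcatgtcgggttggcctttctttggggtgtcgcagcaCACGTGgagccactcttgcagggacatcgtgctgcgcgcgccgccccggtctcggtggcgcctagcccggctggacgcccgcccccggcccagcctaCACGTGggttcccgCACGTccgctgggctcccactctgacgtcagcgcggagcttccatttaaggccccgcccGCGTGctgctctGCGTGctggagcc

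Neither lactate transporter gene was called. Slc16a3, which encodes the export-oriented transporter MCT4, had 434, 400.0 and 405 CPM in hypoxia and 398, 322 and 312 CPM in normoxia, all 3 hypoxia libraries above all 3 normoxia libraries. It did not pass (log2 fold change 0.26, SE 0.10, edgeR adjusted p = 0.0980, but 0.0033 with the replicate block), and its adjusted p was 0.0075 without normoxia replicate 1 and up to 0.28, never under 0.05, without each of the other libraries. Slc16a1, which encodes MCT1, had 146, 130 and 146 CPM in hypoxia and 143, 127 and 152 CPM in normoxia, with full overlap (log2 fold change -0.0021, SE 0.09, edgeR adjusted p = 0.99). Slc16a1 held 25.0% ± 1.04 of both transporters per kb in hypoxia and 28.7% ± 3.20 in normoxia, with overlap (SD, n = 3 each; two-sided exact permutation p = 0.2). Bsg, which encodes basigin, the chaperone that carries both transporters to the cell surface, rose to 539 ± 8.66 CPM in hypoxia, against 414 ± 31.4 CPM in normoxia (SD, n = 3 each; log2 fold change 0.38, edgeR adjusted p = 0.0082).

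Of the pyruvate dehydrogenase kinases, which inhibit the entry of pyruvate into the citric acid cycle, Pdk1 and Pdk2 rose. Pdk1, a known HIF-1 target, had 287, 287 and 281 CPM in hypoxia against 260, 227 and 224 CPM in normoxia, without overlap (log2 fold change 0.27, SE 0.08, edgeR adjusted p = 0.043). Pdk2, a widely expressed form, had 4.91, 4.30 and 3.43 CPM in hypoxia against 2.89, 2.17 and 1.74 CPM in normoxia (log2 fold change 0.89, SE 0.21, edgeR adjusted p = 0.014). Pdk3 had 62.6, 52.8 and 57.3 CPM in hypoxia and 64.4, 51.5 and 50.5 CPM in normoxia, with overlap (log2 fold change 0.05, edgeR adjusted p = 0.776). Per kb, Pdk1 held 65.4% ± 1.86 of the kinase mRNA in hypoxia and 62.7% ± 1.29 in normoxia, with overlap (SD, n = 3 each). Pdk3 held 32.3% ± 1.80 in hypoxia and 35.9% ± 1.12 in normoxia, and Pdk2 2.23% ± 0.342 in hypoxia and 1.37% ± 0.217 in normoxia, both without overlap. With CPM not divided by length, the difference in the Pdk2 share was 0.450 points in place of 0.855. The Pdk1 call was lost without hypoxia replicate 1, 2 or 3 or normoxia replicate 2 or 3 (adjusted p 0.1, 0.118, 0.0792, 0.156 and 0.139), and the Pdk2 call without normoxia replicate 2 (0.0569).

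The partners of these kinases were mixed. Of the 10 genes of the mitochondrial pyruvate carrier, the pyruvate dehydrogenase complex and the phosphatases that reactivate it, all were tested, 2 rose and 3 fell (5 with a block for the replicate), and the median log2 fold change was -0.08. Of all tested genes 11.2% were called higher and 9.72% lower, and 19.2% and 20.0% with the block. Pdp1, a catalytic subunit of the phosphatase, rose to 55.2 ± 3.80 CPM in hypoxia, against 42.6 ± 2.54 CPM in normoxia (log2 fold change 0.37, edgeR adjusted p = 0.0091), and Pdpr, its regulatory subunit, rose by 0.40 (edgeR adjusted p = 0.0064). Pdp2, the other catalytic subunit, fell to 26.96 ± 0.611 CPM in hypoxia, against 39.3 ± 2.38 CPM in normoxia (log2 fold change -0.54, edgeR adjusted p = 0.00092). Pdhb and Dlat, which encode subunits of the complex, fell by 0.25 and 0.34 on the log2 scale (edgeR adjusted p = 0.022 and 0.016). Pdha1, the subunit that the kinases phosphorylate, averaged 109 ± 6.97 CPM in hypoxia and 126 ± 3.91 CPM in normoxia (log2 fold change -0.21, edgeR adjusted p = 0.0700, but 0.0079 with the replicate block). With DESeq2 its adjusted p was 0.0426. The carrier genes Mpc1 and Mpc2 had log2 fold changes of 0.05 and 0.04 (edgeR adjusted p = 0.738 and 0.809). The Dlat call was lost without hypoxia replicate 2 (adjusted p 0.0991), and the Pdhb call without hypoxia replicate 1 or 2 or normoxia replicate 2 or 3 (0.0559, 0.156, 0.0656 and 0.0539) and under library size alone (0.0866).

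Of 76 other genes of connected pathways in 8 lists, 57 were tested, 8 rose and 10 fell, and the median log2 fold change was -0.04. In the fit with the replicate block 16 rose and 19 fell. For each list the share of all tested genes called is again 11.2% higher and 9.72% lower, and 19.2% higher and 20.0% lower with the block. Among 10 other glucose carriers, 4 were tested. Slc2a6, a lysosomal hexose transporter, fell to 4.02 ± 0.963 CPM in hypoxia, against 10.2 ± 1.61 CPM in normoxia (log2 fold change -1.34, edgeR adjusted p = 0.00074), and Slc2a9, which carries urate, rose by 0.49 (edgeR adjusted p = 0.028). Of 15 further genes of glycolysis and lactate handling, 7 were tested and 2 rose (4 with the block), Bsg among them. Over all 8 lists the number that rose was 5 without hypoxia replicate 2 and 5 without normoxia replicate 2. Over all tested genes it was then 1160 and 1146, in place of 1745. The Slc2a9 call was lost without hypoxia replicate 1 or 2 or normoxia replicate 2 or 3 (adjusted p 0.102, 0.0527, 0.0688 and 0.0752).

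Gluconeogenesis and the side branches gave few calls. Of the 4 tested gluconeogenic genes 1 rose and 1 fell (3 and 1 with the block). Fbp1, fructose-1,6-bisphosphatase, rose at a low level, to 1.17 ± 0.0802 CPM in hypoxia, against 0.279 ± 0.118 CPM in normoxia (log2 fold change 2.07, edgeR adjusted p = 0.0011), and passed the filter on low counts only through its hypoxia libraries. Pck2, the mitochondrial phosphoenolpyruvate carboxykinase, fell to 50.2 ± 1.69 CPM in hypoxia, against 99.6 ± 18.2 CPM in normoxia (log2 fold change -0.99, edgeR adjusted p = 0.00045). Of the 8 pentose phosphate genes, all tested, 0 rose and 1 fell, Rpia, ribose-5-phosphate isomerase, which had 77.8 ± 2.73 CPM in hypoxia against 115 ± 6.76 CPM in normoxia (log2 fold change -0.56, edgeR adjusted p = 0.00065). In the fit with the block 1 of these 8 was called higher and 5 lower, against 19.2% and 20.0% of all tested genes.

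Of 8 tested genes of glycogen metabolism, 2 rose and 0 fell (3 and 2 with the block). Pygl, a glycogen phosphorylase, had 107 ± 7.63 CPM in hypoxia against 76.3 ± 9.07 CPM in normoxia (log2 fold change 0.49, edgeR adjusted p = 0.0064). Of 9 tested genes of the shuttles that carry cytosolic NADH into mitochondria, 0 rose and 1 fell (2 and 2 with the block), namely Slc25a12, an aspartate-glutamate carrier (log2 fold change -0.26, edgeR adjusted p = 0.031). The Slc25a12 call was lost without hypoxia replicate 1 or 2 or normoxia replicate 2 or 3 (adjusted p 0.0989, 0.177, 0.0648 and 0.0818), and it was also lost under library size alone (0.098) and without both replicate 1 libraries (0.0649).

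Of 7 tested genes in the list of regulators of glycolytic genes, which holds HIF subunits, Myc, the carbohydrate-sensing Mlxip factors and their targets Txnip and Arrdc4, 0 rose and 3 fell. Hif1a, which encodes HIF-1 alpha, had 59.8 ± 2.36 CPM in hypoxia and 135 ± 8.33 CPM in normoxia (log2 fold change -1.17, edgeR adjusted p = 1.4e-05). Epas1, which encodes HIF-2 alpha, had 5.14 ± 0.870 CPM in hypoxia and 9.04 ± 1.96 CPM in normoxia (log2 fold change -0.81, edgeR adjusted p = 0.010). Arrdc4, an arrestin-domain gene related to Txnip, fell by 0.62 on the log2 scale (edgeR adjusted p = 0.00057). Myc, a transcription factor known to drive glycolytic genes, averaged 114 ± 11.7 CPM in hypoxia and 121 ± 13.1 CPM in normoxia (log2 fold change -0.08, edgeR adjusted p = 0.617). The mRNA level says nothing of the HIF-1 alpha protein, which oxygen controls after translation.

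Promoter windows were matched for 32 of the 33 genes in a RefSeq table of build GRCm38.p6, giving 51 windows of 300 bases. Of these, 72.5% held ACGTG or GCGTG on either strand, against 43.8% of all 32851 windows in the table and 60.3% of the windows of all tested genes. The windows of tested genes with at least 60% GC held them in 72.2%, but that set had a median GC content of 66.7% and is not matched. The median was 57.7% in the windows of the glycolysis genes, 60.3% in those of all tested genes and 52.7% in all windows. ACGTG alone was in 43.1% of the windows of the glycolysis genes, 19.6% of all windows, 25.1% of those of tested genes and 27.5% of those with at least 60% GC. Some windows of Aldoa, Eno1, Pfkm and Pfkfb2 overlap each other. Counted by gene, 84.4% of the 32 genes had a window with ACGTG or GCGTG, against 66.0% of tested genes. Within the list, 69.2% of the windows of genes that rose, both windows of genes that fell and 76.2% of the windows of genes that were not called held at least 1 of these motifs. Slc2a3 was not in the table.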

How the data were processed

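NK cell libraries from 2 groups of 3 (1% or 20% oxygen) were analysed. The authors deposited estimated counts, not normalized, for 56953 Ensembl genes, and 69.5% of these values were whole within a tolerance of 1e-06. They also deposited CPM on the log2 scale, from -4.80 to 14.02, which equalled edgeR's log2 CPM of those counts at a prior count of 2. Trim Galore 0.6.4, kallisto 0.4.6, edgeR 3.17 and build GRCm39 are named per the submitters' processing notes. How transcripts were summed to genes, and from which annotation, is not given in the sources used here. Kallisto divides reads between similar transcripts, which touches genes with pseudogene copies.

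Symbols, transcript lengths and shared stretches of 31 bases came from GENCODE M21 (52029 IDs paired), which is of an earlier build, so no coordinates of it are given. For Aldoa the ID paired by RefSeq was used. Estimated counts were rounded, filtered (filterByExpr, minimum count 10, minimum total 15), scaled with TMM and tested in edgeR 4.0.16 (R 4.3.3) by its quasi-likelihood F-test, without covariates, with Benjamini-Hochberg adjustment over 15591 genes and a threshold of 0.05. The SE was computed by dividing the size of the log2 fold change by the root of F. Family shares were compared by two-sided exact permutation. The fits were checked on simulated data. The depth of 55104810 to 55794698 counts per library limits precision at low levels, and 3 counts, about 0.054 CPM, were taken as the floor.

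Libraries with the same number deviated together from the mean of their group (r = 0.47, 0.33 and 0.30 across genes, above 0.1 in each pair). Hypoxia replicate 2 with normoxia replicate 3 also reached 0.12. The replicate numbers were therefore used as pairs for the pair ratios and the replicate block. The labels do not state a paired design, so the main test held no block, and its calls leave this pairing out. The replicate block was an alternative, as were other scalings, filters, DESeq2 1.42.0, limma-voom (limma 3.58.1) and leaving out libraries. Adding the counts of copies that share at least 100 stretches was chosen after seeing the data. Stretches were taken from the longest coding transcript of each gene of the list. Hk1os, Pitrm1 and Gm49759 share 127, 718 and 139 stretches with Hk1, Pfkp and Pkm, but their counts were not added. Within a group, libraries differed beyond sampling noise (chi-square per gene, on average, 12.4 to 59.2). All genes of the list are named. Of other lists, up to 3 called genes with the smallest p in each direction are named, with Hif1a, Myc, Mpc1, Mpc2, Bsg and Pdha1. Some genes of these lists are counted but not reported here by name. The genes, lists and tests were chosen with earlier results of these data known.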

Additional observations from a re-analysis of the deposited data

How the results depend on the processing

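The counts of called genes among the 31 depended most on the replicates. The number higher in hypoxia was 6 to 18 and the number lower 0 to 2 on leaving out 1 library, and 17 and 2 without both replicate 1 libraries. Over all tested genes the numbers were 1146 to 1980 and 804 to 1636 on leaving out 1 library, and 1811 and 1481 without both. Scaling by library size alone gave 20 higher and 0 lower, the stricter filter (1 CPM in 3 libraries) 14 and 1, no filter 12 and 2, DESeq2 15 and 2, limma-voom 14 and 2, DESeq2 size factors 14 and 2, copies added 14 and 2, and the replicate block 21 and 2. Of the other lists, 16 were higher and 19 lower with the replicate block, and 5 to 10 higher and 7 to 11 lower on leaving out 1 library. The calls of Hk2, Gpi1, Pfkm, Pfkfb3, Pgam1 and Eno3 held in each of the 15 settings run, and no called gene changed sign. The replicate block ended no call and, among the glycolysis genes and the named genes of the other lists, added only the calls given beside the results.

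Sign changes touched uncalled genes only. Under library size alone Gapdh was at 0.052, Bpgm at 0.065, Eno2 at 0.0085 and Slc16a1 at 0.080 (log2 fold change), under the stricter filter Slc16a1 was at 0.015, and without both replicate 1 libraries Gapdh was at 0.017. On leaving out 1 library, Slc2a3 ran over -0.30 to 0.058, Gapdh over -0.16 to 0.14, Bpgm over -0.12 to 0.048, Eno2 over -0.18 to 0.097, Slc16a1 over -0.072 to 0.063, Pdk3 over -0.012 to 0.17, Mpc1 over -0.0098 to 0.12 and Mpc2 over -0.017 to 0.092. Every family share kept its direction, but 4 moved by more than the larger SD of its groups when lengths were left out or averaged: Hk3 to as little as -0.616 points in place of -1.38, Pfkfb1 to -2.93 in place of -6.10, Pfkm to 0.742 in place of 0.993 and Pdk2 to 0.450 in place of 0.855. The summed level was higher in hypoxia by 5167 CPM, by 6917 CPM under library size alone and by 4276 to 6914 CPM on leaving out 1 library. The cause of these differences was not tested. Eno2 and Ldhb, at 7 to 26 counts per library, are limited by depth.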

Other observations

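A pair of Gapdh pseudogenes, Gm12671 and Gm10359, held identical values, so their counts cannot be told apart. Each had 22.4, 242 and 255 CPM in hypoxia and 20.3, 207 and 226 CPM in normoxia, so that replicate 1 was far below replicates 2 and 3 in both groups. Gapdh itself was highest in replicate 1 of both groups. Neither pseudogene was called (log2 fold change 0.20, SE 0.86, edgeR adjusted p = 0.902). With the replicate block both were called higher (log2 fold change 0.185, SE 0.049, edgeR adjusted p = 0.0115). Both were chosen after their values were seen.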
